A study of Homo sapiens with 6 samples.

Results

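The complement components and regulators examined here were 9 genes, chosen by their symbols from the 64253 genes of the count tables: the proteases C1R, C1S and CFB, the central component C3, the soluble regulators CFI and SERPING1, and the membrane regulators CD46, CD55 and CD59. RNA was sequenced from PC-3, an established human prostate cancer cell line, carrying a lentiviral shRNA against CdGAP (shCdGAP, 3 samples) or a control shRNA (shCon, 3 samples). CdGAP, the product of ARHGAP31, inactivates the small GTPases Rac1 and Cdc42. According to the study's methods, CdGAP-depleted PC-3 cells were selected with puromycin and grown out as single-cell clones, which is not stated for the control cells, so an effect of CdGAP depletion and a difference between a clone and the control cells cannot be told apart. The RNA-sequencing methods do not name the clone or clones that gave the shCdGAP samples. The question put to these genes was whether their transcripts differed between shCdGAP and control cells.

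Complement is a cascade of plasma and cell-surface proteins that marks surfaces and can open pores in membranes. In the classical pathway, the proteases C1r and C1s are activated on antibody-bound C1q, while in the alternative pathway factor B and factor D build a convertase on deposited C3b; both routes cleave C3. Host cells restrain the cascade with C1 inhibitor, which blocks C1r and C1s, with factor I, which cleaves C3b with the help of cofactors such as CD46, with CD55, which dissociates convertases, and with CD59, which blocks the pore. The liver makes most circulating complement, and epithelial and tumour cells also transcribe several of its genes.

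Each library held between 33182796 and 43154039 counts. ARHGAP31 had 1072, 1181 and 926 counts under shCdGAP and 2472, 2557 and 1923 under shCon, which is -1.14 ± 0.0409 as log2 fold change (± SE, adjusted p = 8.75e-08). Replicate 2 of shCdGAP stood apart from the other shCdGAP libraries: over 14742 genes its counts differed from theirs with a chi-square of 29.3 and 35.8 per degree of freedom, against 3.38 between replicates 1 and 3, so member values are also given without it. All 5 epithelial and PC-3 markers listed were above 1 CPM (a gene's counts relative to the library's scaled total, which sums to 1e+06) in every library. They summed to 2044 to 2423 CPM in shCdGAP and 1293 to 1342 CPM in shCon libraries, and EPCAM, KRT19 and VIM were called higher (log2 fold changes of 1.35, 1.04 and 0.87). Of 5 genes of the androgen receptor pathway, low or absent in PC-3, 4 had fewer than 20 counts in every library. Of 6 hepatocyte markers, 5 had fewer than 20 counts in every library, among them ALB and TTR, while SERPINA1 had 3187 to 6477 counts in shCdGAP and 264 to 378 in shCon libraries and set the list's sum, 92.8 to 149 against 8.23 to 9.22 CPM. Of 6 leukocyte markers, 5 had fewer than 20 counts in every library, and the list summed to 0.296 to 0.367 CPM in shCdGAP and 0.596 to 0.908 CPM in shCon libraries. The remaining marker, LYZ, was lower under shCdGAP (log2 fold change -3.06, adjusted p = 0.000614). The 6 fibroblast markers summed to 341 to 362 CPM in shCdGAP and 302 to 309 CPM in shCon libraries, most of it from COL1A2, which did not pass (log2 fold change -0.04). Of the 5 fibroblast markers tested, the other 4 were higher under shCdGAP, COL1A1 by 1.67, PDGFRA by 2.67, PDGFRB by 3.17 and LUM by 3.01 on the log2 scale, and DCN had at most 5 counts. The 4 endothelial markers summed to 5.38 to 12.7 and 9.71 to 11.6 CPM. The part of these differences in the results was not tested.

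Of the 9 complement genes, 8 had enough counts to be tested with edgeR's quasi-likelihood test over all genes, and SERPING1 did not. At an adjusted p under 0.01, 3 members were higher in shCdGAP cells (C1R, C1S and CFI) and 1 was lower (C3). Across the 16439 genes tested, 24.1% were higher and 22.0% lower by the same rule, 46.2% in all, so the share of members called was close to that of all genes. Of the 8 tested members, 4 passed with an absolute log2 fold change above 1, as did 12.8% of all tested genes (8.56% higher and 4.19% lower). The median log2 fold change was 0.53 over the 8 members and 0.01 over all tested genes. The members were chosen with earlier results of these data known. Their shares and median are therefore a description and cannot be read as an excess among complement genes. The 3 libraries of one group lay wholly on one side of the other group for 7 of the 8 members and for 67.1% of all tested genes. In bulk RNA, fewer cells expressing a gene and less RNA per cell cannot be told apart.

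**Figure D1:**
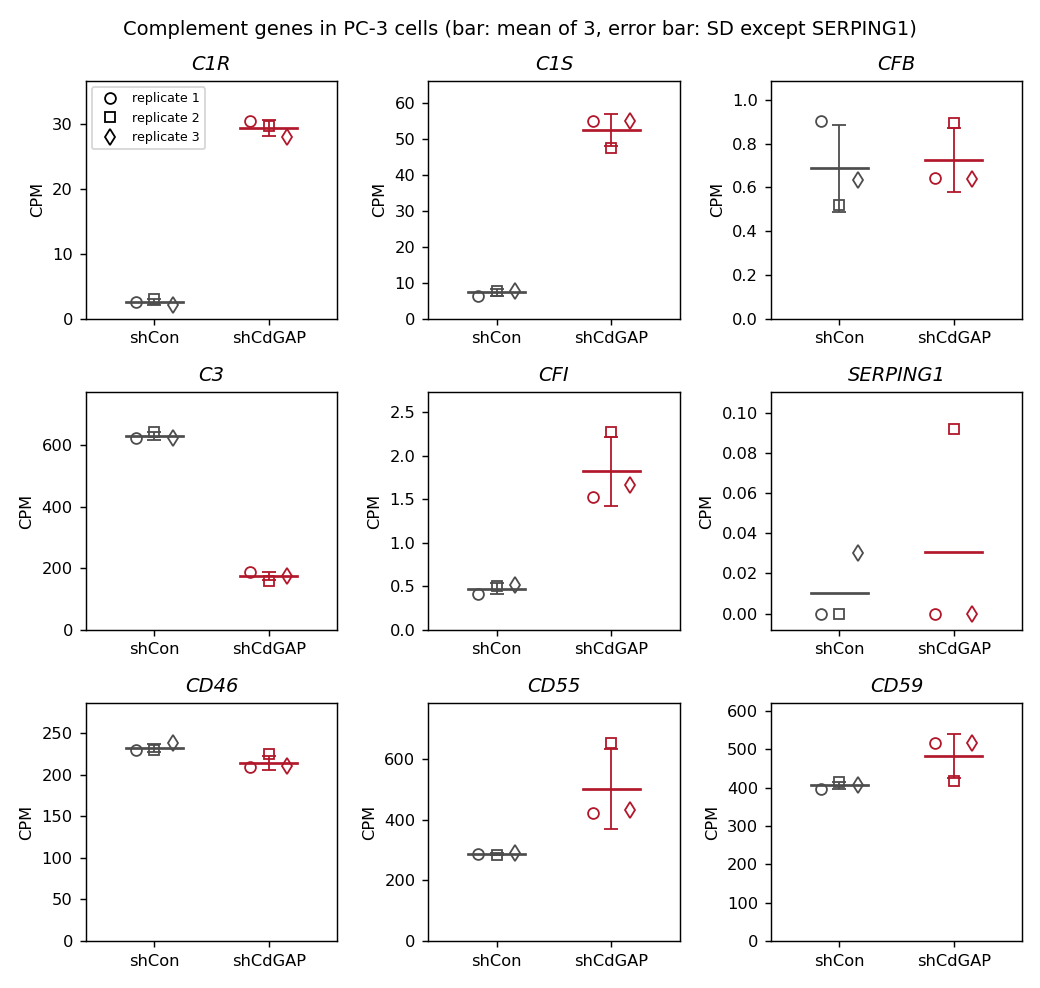
Each panel plots one gene as CPM (vertical axis) in the 3 shCon libraries (grey) and the 3 shCdGAP libraries (red), with symbols for replicates 1, 2 and 3, a bar at the mean and the SD as error bar. C1R, C1S and CFI sit higher and C3 lower in all 3 shCdGAP libraries, CFB overlaps between the groups, and CD55 is highest in shCdGAP replicate 2.

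The promoter stretches below are shown for the soluble components C1R and CFI, which rose, and for CFB, of the same cascade, for which no difference was detected. They are the 250 bases before a RefSeq start site, read 5′ to 3′ on the gene's strand of GRCh38.p14, at chr12:7092446-7092695 (minus strand), chr4:109802000-109802249 (minus strand) and chr6:31945845-31946094 (plus strand). Capitals mark matches to the motifs searched.

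C1R: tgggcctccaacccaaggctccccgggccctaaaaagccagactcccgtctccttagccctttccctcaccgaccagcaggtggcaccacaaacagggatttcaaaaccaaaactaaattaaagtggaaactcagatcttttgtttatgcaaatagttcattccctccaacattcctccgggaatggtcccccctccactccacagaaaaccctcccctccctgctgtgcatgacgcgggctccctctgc

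CFI: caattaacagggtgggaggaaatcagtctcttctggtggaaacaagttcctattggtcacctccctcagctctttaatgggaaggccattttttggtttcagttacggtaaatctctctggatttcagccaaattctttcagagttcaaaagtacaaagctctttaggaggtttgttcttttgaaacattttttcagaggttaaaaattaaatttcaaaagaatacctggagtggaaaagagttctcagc

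CFB: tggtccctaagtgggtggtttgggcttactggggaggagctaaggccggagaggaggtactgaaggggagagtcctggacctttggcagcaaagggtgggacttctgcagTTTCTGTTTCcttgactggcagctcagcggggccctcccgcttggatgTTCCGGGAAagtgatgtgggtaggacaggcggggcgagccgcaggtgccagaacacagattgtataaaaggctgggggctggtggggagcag

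The 4 motifs searched, on both strands, were an interferon-stimulated response element core (ISRE, GAAA repeated after any 2 bases), a STAT-type element (GAS, TTCNNNGAA), the kappaB motif and an AP-1 motif (TGANTCA). In CFB the first capitals are an ISRE core match on the opposite strand, from 140 to 131 bases before the start, and the later ones a GAS match from 92 to 84 bases before it. These letters occurred nowhere in the CFI window or in the C1R window printed. Before a second RefSeq start of C1R, the stretch chr12:7091894-7092143 held 1 GAS match, TTCCTGGAA, from 86 to 78 bases before the start. Of 35114 windows of this length, 3.02% held an ISRE core, 6.57% a GAS, 5.21% a kappaB and 6.57% an AP-1 match. CD46 and CD55 windows held none of the 4 motifs, while CD59 windows held a GAS match before the first and the second start and AP-1 matches before the fourth. Windows were used for 6 of the 9 members, with C3, C1S and SERPING1 not analysed here.

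The transcripts of both C1 proteases rose in shCdGAP cells, C1R by 11.4-fold and C1S by 7.22-fold. C1R (ENSG00000159403, chromosome 12 from 7080209 to 7092607, minus strand), which activates C1s, had 1236, 1291 and 963 counts in shCdGAP replicates 1, 2 and 3 and 107, 127 and 70 in the shCon replicates. The lowest shCdGAP library thus lay far above the highest control library. Scaled to library size, these counts gave 29.4 ± 1.25 and 2.56 ± 0.445 CPM (SD, n = 3 per group), which is 3.51 ± 0.106 as log2 fold change (± SE, adjusted p = 3.66e-08).

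C1S (ENSG00000182326, chromosome 12 from 6988259 to 7071032, plus strand) encodes the protease that cleaves C4 and C2. Its counts were 2232, 2062 and 1888 under shCdGAP and 260, 330 and 258 under shCon. The groups were again fully separated, at 52.4 ± 4.42 against 7.28 ± 0.933 CPM (SD, n = 3 per group), and the log2 fold change was 2.85 ± 0.100 (SE, adjusted p = 1.05e-07). C1S and C1R lie 9176 bases apart on opposite strands with their 3′ ends facing each other. Per kilobase of exon, C1S transcripts stood at 1.57 ± 0.160 times the level of C1R in shCdGAP cells and at 2.55 ± 0.598 times in control cells (SD, n = 3 per group). C1R shares 11.8% of its exon length with C1RL on the same strand, and counts in that stretch are assigned to neither gene. Without shCdGAP replicate 2 the log2 fold changes were 3.49 for C1R and 2.92 for C1S. The 4 fibroblast markers named above rose in the same libraries, and their part in the C1R and C1S difference was not tested.

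C3, the component on which all complement pathways converge, fell. Its gene (ENSG00000125730, chromosome 19 from 6677704 to 6730562) had 7627, 6969 and 6069 counts under shCdGAP and 26110, 27190 and 20569 under shCon. Every shCdGAP library held fewer C3 counts than any control library. The level dropped from 630 ± 12.6 to 175 ± 14.1 CPM (SD, n = 3 per group), a reduction of 72.2% (log2 fold change -1.85 ± 0.0577 as SE, adjusted p = 4.24e-08). Without shCdGAP replicate 2, which had the lowest C3 level of its group, the log2 fold change was -1.80. As C3 fell and the C1 proteases rose, the length-scaled level of C3 went from 67.9 ± 8.74 to 2.59 ± 0.0837 times that of C1S and from 171 ± 27.4 to 4.06 ± 0.333 times that of C1R (SD, n = 3 per group).

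CFB, the protease subunit of the alternative pathway convertase, was scarce in both groups. It (ENSG00000243649, chromosome 6 from 31945650 to 31952084) had 26, 39 and 22 counts under shCdGAP and 38, 22 and 21 under shCon. The groups overlapped, at 0.726 ± 0.147 and 0.688 ± 0.197 CPM (SD, n = 3 per group), and no difference was detectable at this depth (log2 fold change 0.08, 95% interval -0.53 to 0.69, adjusted p = 0.809). Moreover, 45.5% of CFB's exon length is shared on its strand with C2 and with a gene spanning C2 and CFB, and counts there are assigned to none of them, so its level is a lower estimate. None of the 3974 genes on alternate contigs of the annotation had a count in any library.

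Of the soluble inhibitors, CFI rose and SERPING1 was almost silent. CFI (ENSG00000205403, chromosome 4 from 109740694 to 109802179), which encodes the protease factor I, had 62, 99 and 57 counts under shCdGAP and 17, 21 and 17 under shCon. All shCdGAP libraries were higher, with the most in replicate 2. The level rose from 0.472 ± 0.0588 to 1.82 ± 0.397 CPM (SD, n = 3 per group), which is 1.95 ± 0.230 as log2 fold change (± SE, adjusted p = 9.60e-05). Without shCdGAP replicate 2 it was 1.74. SERPING1 (ENSG00000149131, chromosome 11 from 57597387 to 57614853), which encodes C1 inhibitor, had 0, 4 and 0 counts under shCdGAP and 0, 0 and 1 under shCon, where 3 counts correspond to 0.0689 to 0.0908 CPM. Transcripts of the inhibitor of C1r and C1s were thus at or near the detection limit in both groups, and no fold change was computed.

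Abundant transcripts encoded all 3 membrane regulators. None passed an adjusted p of 0.01 by edgeR with TMM scaling and its filterByExpr filter over all 6 libraries. Other filters in edgeR changed this. CD55 passed when 10 reads were required in every library (adjusted p = 0.00814), and CD59 passed with no filter (adjusted p = 6.75e-07). CD46 passed with neither. By DESeq2, CD55 and CD59 passed (adjusted p = 0.00102 and 0.00865). CD55 (ENSG00000196352, chromosome 1 from 207321508 to 207360966), the decay-accelerating factor, had 17082, 28513 and 14870 counts under shCdGAP and 12048, 11971 and 9584 under shCon. Every shCdGAP library was above every control library, but replicate 2 lay well above the other shCdGAP libraries. The means were 503 ± 132 and 287 ± 3.22 CPM (SD, n = 3 per group), a log2 fold change of 0.81 (95% interval 0.36 to 1.26, adjusted p = 0.0102). Without replicate 2, the log2 fold change was 0.56 and the adjusted p was 3.22e-22.

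CD59 (ENSG00000085063, chromosome 11 from 33698261 to 33736445), the inhibitor of the membrane attack complex, had 20937, 18155 and 17748 counts under shCdGAP and 16613, 17506 and 13460 under shCon. Scaled to library size, shCdGAP replicates 1 and 3 were both at 516 CPM, while replicate 2, at 417 CPM, lay just above the highest control library at 415 CPM. The log2 fold change was 0.25 (95% interval 0.07 to 0.43, adjusted p = 0.0250), and without replicate 2 it was 0.34 (adjusted p = 4.82e-15). CD46 (ENSG00000117335, chromosome 1 from 207752057 to 207795513), a cofactor for factor I, had 8457, 9761 and 7216 counts under shCdGAP and 9614, 9700 and 7864 under shCon. At 214 ± 8.60 and 232 ± 4.93 CPM (SD, n = 3 per group) the shCdGAP libraries were all slightly below the control libraries, with a log2 fold change of -0.12 (95% interval -0.21 to -0.03, adjusted p = 0.0288). Without replicate 2 this was -0.16 (adjusted p = 1.06e-06), so all 3 membrane regulators passed once that library was left out, each in the same direction as with it. That fit called 60.0% of its 16727 tested genes, against 46.2% with all libraries.

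**Figure D2:**
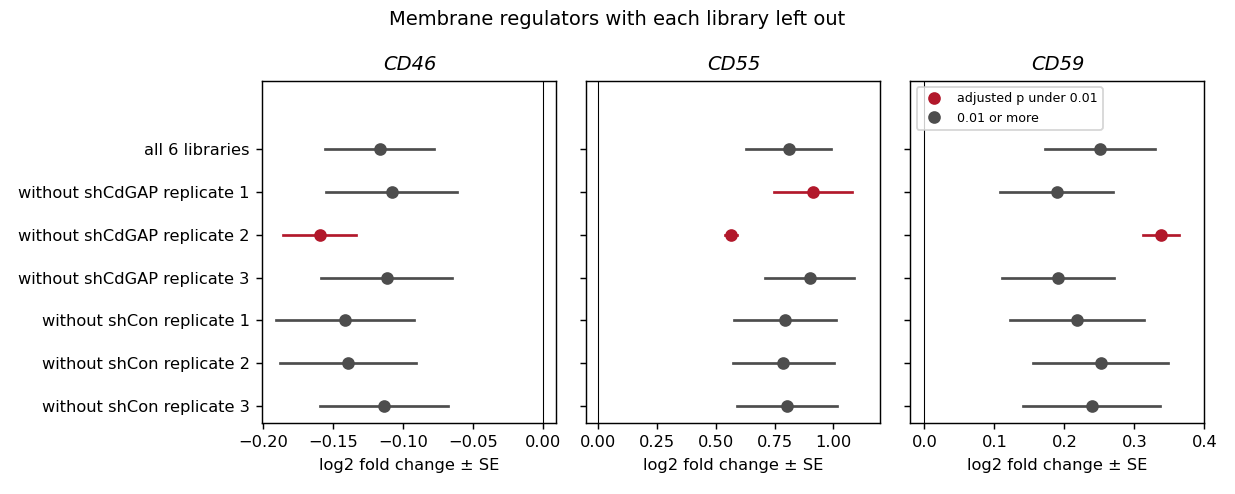
Log2 fold changes of shCdGAP over shCon (horizontal axes, which differ between panels; lines are ± 1 standard error) for CD46, CD55 and CD59 with all 6 libraries and with each library left out in turn. Red points are past an adjusted p of 0.01: all 3 genes pass without shCdGAP replicate 2, at -0.16, 0.56 and 0.34, and CD55 also passes without shCdGAP replicate 1.

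Compared per kilobase of exon, the order of the members differed between the groups. In control cells CD59 was at 82.2 ± 1.92, C3 at 75.6 ± 1.51, CD55 at 70.8 ± 0.795 and CD46 at 26.7 ± 0.566 CPM per kilobase (SD, n = 3 per group). C1S at 1.13 ± 0.144 and C1R at 0.451 ± 0.0785 followed, and CFB at 0.138 ± 0.0395 and CFI at 0.122 ± 0.0152 did not differ beyond their spread. CFB's level is a lower estimate, because 45.5% of its exon length is shared on its strand, while CFI's is not shared. The comparison of CFB with CFI thus depends on the length used. In shCdGAP cells CD55, at 124 ± 32.4, and CD59, at 97.8 ± 11.6, overlapped at the top of the order. There CD46 was at 24.6 ± 0.987, C3 at 21.0 ± 1.70, C1S at 8.12 ± 0.683 and C1R at 5.18 ± 0.221, each separate from the next, and CFI at 0.470 ± 0.103 lay above CFB at 0.145 ± 0.0294. C3 thus stood between the membrane regulators in control cells and below all of them in shCdGAP cells. The summed length-scaled level of CD46, CD55 and CD59 was 246 ± 21.8 in shCdGAP cells and 180 ± 2.10 in control cells.

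**Figure D3:**
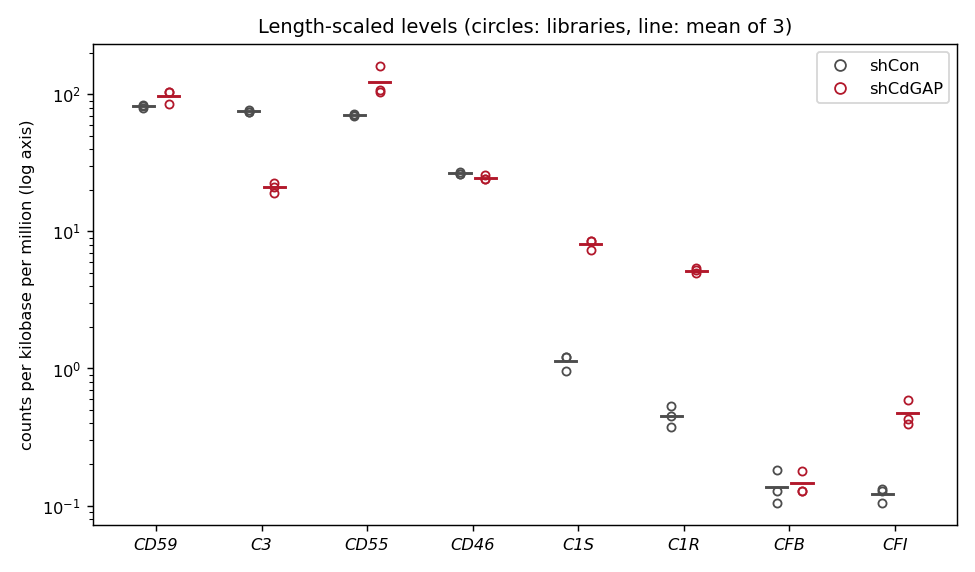
Length-scaled levels, in CPM per kilobase on a log axis, of the 8 tested members in shCon (grey) and shCdGAP (red) libraries, with circles for libraries and a line at the mean of 3. C3 drops from 75.6 to 21.0 while C1S and C1R climb from 1.13 to 8.12 and from 0.451 to 5.18.

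To show whether whole regions moved, each member was set beside the 25 tested genes nearest to it on its chromosome, other complement genes left out. The medians of these neighbours lay between -0.18, around CFI, and 0.09, around C1R, C1S, CD46 and CD55, on the log2 scale. C1R and C1S at 3.51 and 2.85 were above all their 25 neighbours, of which 5 were also called higher by more than a log2 fold change of 1 and the highest, GPR162, was at 2.74. C3 at -1.85 was below all of its neighbours, the lowest of which was at -0.96. CFI at 1.95 lay within the range of its neighbours, from -2.72 to 2.15.

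**Figure D4:**
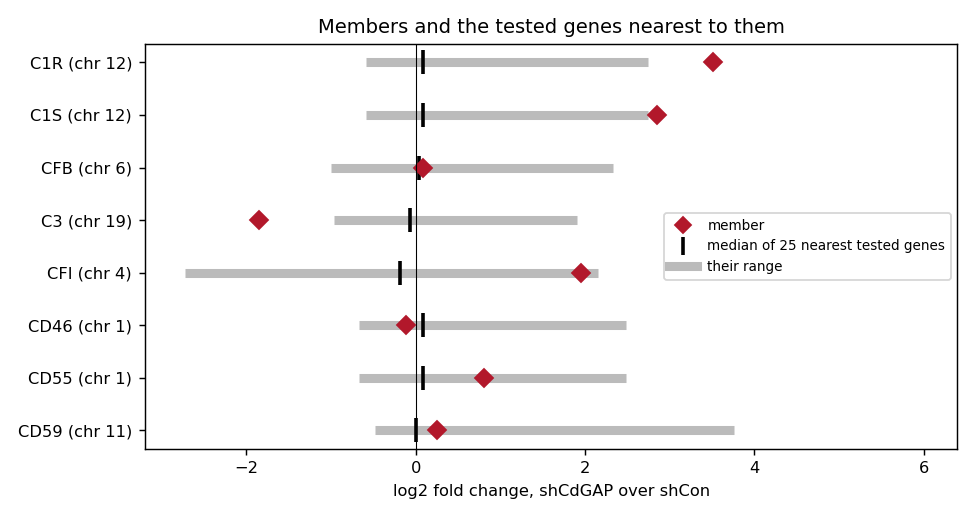
Log2 fold change of each tested member (red diamond) beside the median (black tick) and range (grey bar) of the 25 nearest tested genes on its chromosome. C1R, C1S and C3 lie outside the ranges of their neighbours, and the other 5 members lie within them.

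The member with the largest change was C1R. Over the 6 libraries, the genes whose log2 CPM followed it most closely were KCNK12, NPTX2 and TXNDC15 (Pearson r = 0.9997, 0.9996 and 0.9994), and 698 genes had a correlation above 0.99. With 2 groups so far apart, such a correlation follows largely from the difference between the groups.

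Beyond the 9 members, 50 other complement genes were listed, of which 17 had enough counts to be tested and 15 had no count in any library. No count was found for the C1q chains C1QA, C1QB and C1QC. The remaining untested genes had at most 14 counts in any library. Of the 17 tested genes, 7 were higher and 4 lower in shCdGAP cells at an adjusted p under 0.01, beside 24.1% and 22.0% of all genes. Of the 17, 9 passed with an absolute log2 fold change above 1, as did 12.8% of all tested genes. This list was also chosen with earlier results of these data known, so these counts are a description. The median log2 fold change of the 17 was 0.21.

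Among proteases, C1RL, which encodes a C1r-like protease, rose from 2.87 ± 0.742 to 6.98 ± 0.340 CPM (SD, n = 3 per group, log2 fold change 1.30, adjusted p = 0.000156). MASP1, a protease of the lectin pathway, had 14, 31 and 13 counts in shCdGAP and 4, 0 and 1 in shCon libraries (log2 fold change 3.42, adjusted p = 0.00196), and without shCon replicate 3 its adjusted p was 0.0117. With so few control counts its log2 fold change was 4.87 without shCon replicate 1 and 2.80 without shCon replicate 2. CFD fell: this gene encodes factor D, the protease that cleaves factor B, and its level went from 25.6 ± 1.15 to 7.77 ± 1.44 CPM (SD, n = 3 per group, log2 fold change -1.71, adjusted p = 3.81e-06). Of the alternative pathway genes, C3 and CFD were therefore lower, while CFB and CFP, the gene of properdin, did not pass (adjusted p = 0.809 and 0.154). CFP had few counts, 15, 11 and 14 in shCdGAP and 18, 23 and 15 in shCon libraries. In CPM every shCdGAP library was below every control library for CFP, with a log2 fold change of -0.49 (95% interval -1.11 to 0.13).

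Regulators outside the 9 members did not all move alike. CLU, SUSD4 and CSMD1 rose, while CR2, listed with the membrane regulators and described below as a receptor, fell. CLU, encoding clusterin, which can bind the terminal complex, had 4567, 5206 and 3682 counts in shCdGAP and 1328, 1329 and 910 in shCon libraries. This amounted to 113 ± 6.21 against 30.2 ± 2.33 CPM (SD, n = 3 per group), which is 1.90 ± 0.0645 as log2 fold change (± SE, adjusted p = 6.34e-08). SUSD4, a membrane protein that inhibits complement, rose from 2.05 ± 0.197 to 5.99 ± 0.561 CPM (SD, n = 3 per group, log2 fold change 1.55, adjusted p = 9.66e-06). CSMD1, another membrane inhibitor, had 23, 30 and 22 counts in shCdGAP and 1, 0 and 0 in shCon libraries, a ratio of 74.2 with a 95% counting interval from 12.9 to 2969 (adjusted p = 2.83e-05).

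The receptors went in both directions. CR2, the receptor for C3d, fell from 2.39 ± 0.437 to 0.397 ± 0.360 CPM (SD, n = 3 per group, log2 fold change -2.51, adjusted p = 0.00197), and the fold change was -3.56 without shCdGAP replicate 2. CR2 lies between CD55 and CD46 on chromosome 1, where their log2 fold changes were 0.81 and -0.12. ITGB2, the beta chain of the leukocyte integrins that bind iC3b, had 78, 136 and 55 counts in shCdGAP and 481, 552 and 447 in shCon libraries (log2 fold change -2.50, adjusted p = 1.78e-05), while its partner chains ITGAM and ITGAX had at most 5 counts. The leukocyte marker LYZ was also lower under shCdGAP (-3.06), while PTPRC had at most 1 count. C3AR1, the receptor for C3a, had 13, 46 and 20 counts in shCdGAP and 7 in each shCon library (log2 fold change 1.86, adjusted p = 0.00970). It did not pass when shCdGAP replicate 3 or any 1 of the shCon libraries was left out (adjusted p = 0.0185 to 0.0406), and its log2 fold change was 1.28 without shCdGAP replicate 2. The other two called genes, named after their values were seen, were C5 at 0.44 and C1QBP at -0.34 on the log2 scale. C5 lies on chromosome 9, where its 25 nearest tested genes had a median of -0.56.

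**Figure D5:**
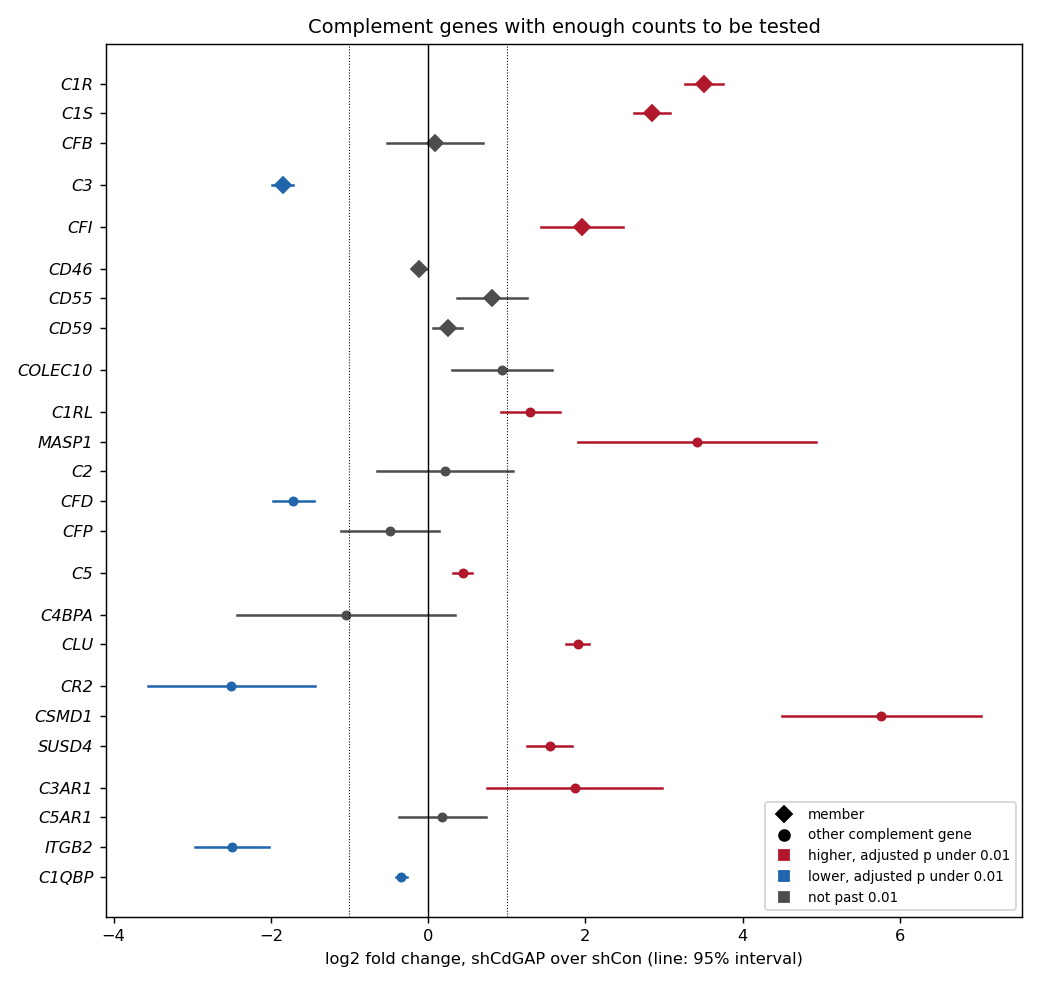
Log2 fold change of shCdGAP over shCon with its 95% interval for the 8 tested members (diamonds) and other tested complement genes (circles), ordered by role, with dotted lines at -1 and 1. C1R, C1S, CFI and 7 other genes are higher (red), C3 and 4 other genes are lower (blue), and the grey genes did not pass an adjusted p of 0.01.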

How the data were processed

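Total RNA of PC-3 cells was sequenced, 3 shCdGAP and 3 shCon samples. The authors aligned reads to GRCh38 with STAR 2.5.1b and deposited raw counts per gene, one table per sample. Per the file headers, read pairs were counted by strand with featureCounts 1.6.0 on Ensembl release 77, whereas the methods name featureCounts 1.4.6 and a single-read kit. Those settings leave out multi-mapping reads and reads in exons that same-strand genes share. Each table held 64253 genes, and 87.3% of the gene IDs matched a symbol.

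The members and gene lists were chosen with earlier results of these data known. Differences were tested with edgeR 4.0.16 in R 4.3.3, using TMM scaling, its filterByExpr filter and a robust quasi-likelihood fit, and p-values were adjusted by Benjamini-Hochberg over 16439 tested genes. Calls used an adjusted p under 0.01, and fold calls also an absolute log2 fold change above 1. A standard error (SE) is the size of the log2 fold change over the root of its F statistic. CPM were scaled by TMM-adjusted library sizes, and length-scaled levels used the table's exon lengths. Counting intervals cover counting error only. Of the other complement genes, those passing both thresholds are named.

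Deviations from the group means correlated at 0.123, 0.119 and 0.119 between libraries of the same replicate number over 10207 genes. Between different numbers the values ran from -0.202 to 0.0982, the highest for shCdGAP replicate 3 with shCon replicate 1. The same-number values passed a limit of 0.1 set for pairing, but the labels do not state a shared origin. The values reported come from a fit without pairing, and a fit with the replicate number as a block was an alternative. The methods call the replicates independent samples without naming separate cultures, so p-values measure the spread between these samples. The fit estimates each gene's variance partly from other genes, so very small p-values do not rest on that gene's own libraries alone.

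The fit was first tested on simulated data with known changes. Alternatives were DESeq2 1.42.0, other scalings and filters, another threshold, a replicate block and leaving out each library. Promoter sequences are RefSeq's. One of the other complement genes is counted in the totals but is not reported here.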

Additional observations from a re-analysis of the deposited data

How the results depend on the processing

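With DESeq2 or at an adjusted p under 0.05, 5 members were higher instead of 3, and at 0.05 there were 2 lower instead of 1. Leaving out 1 library at a time gave between 3 and 5 members higher and between 1 and 2 lower, the upper values without shCdGAP replicate 2. Requiring 10 reads in every library left 4 of the other complement genes higher instead of 7, because fewer genes were tested. C1R, C1S, C3 and CFI kept their direction and call in all 12 alternatives, with log2 fold changes of 3.39 to 3.63, 2.73 to 2.92, -1.91 to -1.80 and 1.74 to 2.06. CD55 passed in 6 of 12 (adjusted p from 3.22e-22 to 0.0614), CD59 in 3 (4.82e-15 to 0.0990) and CD46 in 1 (1.06e-06 to 0.0883). CFB turned to -0.12 without shCdGAP replicate 2 and -0.11 without shCon replicate 2, with a range of -0.12 to 0.33 over the libraries left out, never past the threshold. With the replicate number as a block, 3 members were higher and 1 lower, 7 and 4 of the other complement genes, and 3808 and 3421 of all genes, and no call changed among the tested members or the other complement genes past both thresholds. Counts limit CFB, SERPING1, MASP1, CSMD1, CR2, CFP and C3AR1. Groups of 3 are too small to test for outlying samples.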
